A study of Mus musculus with 12 samples.

Results

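The genes of 4 gut and regulatory peptide hormones were followed through gastric tumour growth in the mouse: Sct (secretin), Gcg (proglucagon), Grp (gastrin-releasing peptide) and Calca (calcitonin and calcitonin gene-related peptide). They were chosen by name, as 4 of the 8903 genes that could be named on the array. Sct, Gcg and Grp had 1 probe each and Calca had 2, numbered 237 and 78 in their probe IDs, so that 5 of 46116 probes belong to them. All 5 passed the filter on low signal. Antral stomach RNA of each mouse was read on its own 1-colour bead array. Day 30, day 60 and day 90 stand for 3 CEA424-SV40 TAg transgenic mice each, aged 30, 60 and 90 days, hemizygous on the C57Bl/6 background, whose SV40 T antigens are driven by a human CEA minimal promoter. Their samples held antral tumour mixed with normal tissue. The 3 controls were wild type C57Bl/6 mice with normal antrum. The labels put the controls' age at 2 to 6 months, whereas the study's text speaks of littermates and 1 of its legends of day 90, so their age is uncertain. The mice are numbered 1 to 3 within a group, and the p-values measure the spread between these 3 animals.

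Peptide hormones are made as longer precursors, cut by prohormone convertases and trimmed and amidated in dense granules before release. Secretin is made by S cells of the duodenum and drives bicarbonate secretion from the pancreas. Proglucagon gives glucagon in pancreatic alpha cells and the glucagon-like peptides in intestinal L cells. Gastrin-releasing peptide, the mammalian relative of bombesin, is released by nerves of the stomach wall and stimulates gastrin secretion. Calca gives calcitonin in thyroid C cells and calcitonin gene-related peptide in sensory neurons, by alternative splicing. The 2 Calca probes were not assigned to either transcript.

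The upstream sequences of Sct and Gcg are shown because these members had the largest fold changes against control at day 60. The promoter table used gives 1 transcript start for each, and the 250 bases before it were searched. For Sct 41 of these bases lie inside the RefSeq gene, which begins farther upstream, so that 209 are printed, and for Calca the whole window lies inside the gene, so that none are. The sequences are from GRCm38.p6, minus strand, at chr7:141279175-141279383 for Sct and chr2:62483654-62483903 for Gcg. Capitals mark the motifs searched on both strands: the TATA box letters TATAAA, the E-box letters CAGCTG, the GC box letters GGGCGG and the cyclic AMP response element core TGACG.
Sct: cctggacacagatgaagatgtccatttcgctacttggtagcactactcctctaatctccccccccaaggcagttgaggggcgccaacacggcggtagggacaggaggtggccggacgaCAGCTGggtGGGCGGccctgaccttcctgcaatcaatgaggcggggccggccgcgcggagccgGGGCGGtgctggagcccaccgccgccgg
Gcg: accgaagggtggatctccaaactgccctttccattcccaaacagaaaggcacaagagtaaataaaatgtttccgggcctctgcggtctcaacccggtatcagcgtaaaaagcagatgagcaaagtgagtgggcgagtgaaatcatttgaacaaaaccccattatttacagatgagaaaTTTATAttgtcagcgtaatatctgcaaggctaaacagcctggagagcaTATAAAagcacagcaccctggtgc
In Gcg the TATA letters stood 19 to 24 bases upstream of the start and again 67 to 72 bases upstream on the opposite strand. Sct had them 23 to 28 bases upstream of the table's start, in the bases not printed. Sct also had 1 E-box match, 127 to 132 bases upstream, and 2 GC box matches, the nearer one 64 to 69 bases upstream. Neither had a TGACG match, and no match overlapped another. Of 32851 mouse promoters of the same length, 12.4% held the TATA letters, 13% the E-box letters, 32.7% the GC box letters and 17.8% the TGACG letters. The Sct window was 68.0% G and C and the Gcg window 44.8%, beside a median of 52.4% over all promoters. A match is a description of letters and not a measured site.

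Secretin differed most from the controls of the 4 genes at day 60. The Sct probe read 193, 129.7 and 1217 in control mice 1 to 3, 1420, 3613 and 2813 at day 30, 14942, 8944.5 and 6347 at day 60, and 46340, 43595 and 23866 at day 90. The controls lay lowest and the transgenic groups followed in order of age, with no overlap. The control group was the widest, since control mouse 3 read 9.39 times control mouse 2. At day 90 the mean was 37930 ± 12260 (SD, n = 3), against 513 ± 611 in controls. On the day 90 arrays Sct took positions 2, 3 and 22 in brightness among all 46116 probes, and quantile normalization sets the top values alike on every array.

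Proglucagon had its largest step between day 90 and day 60. The Gcg probe read 133, 135 and 91.0 in control mice 1 to 3, 223, 172 and 254 at day 30, 1923, 737 and 591 at day 60, and 7878, 9978.5 and 8642 at day 90. Again the controls lay lowest and the transgenic groups followed in order of age without overlap. The 3 day 90 mice lay within 1.27 times of each other, while day 60 mouse 1 read 3.26 times day 60 mouse 3.

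Gastrin-releasing peptide was near the lower limit of the array in the controls and at day 30. The Grp probe read 81.3, 106.5 and 66.9 in controls, 123, 89.0 and 94.7 at day 30, 310.6, 260.1 and 195 at day 60, and 2207, 2682 and 1981 at day 90. Day 30 and control arrays overlapped, and every day 60 and day 90 array was above them.

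Calca was not above background in the controls or at day 30. Probe 237 read 53.0, 65.5 and 59.1 in controls, 79.4, 71.3 and 69.1 at day 30, 193, 139 and 85.2 at day 60, and 1260.4, 3370.4 and 3271 at day 90. Probe 78 read 62.3, 77.2 and 84.5 in controls, 89.1, 76.0 and 86.1 at day 30, 104, 95.7 and 95.3 at day 60, and 623, 1865 and 2558 at day 90. Both probes were above background on all 3 arrays at day 90 only, and in both of them day 90 mouse 1 was the lowest of its group.

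**Figure D1:**
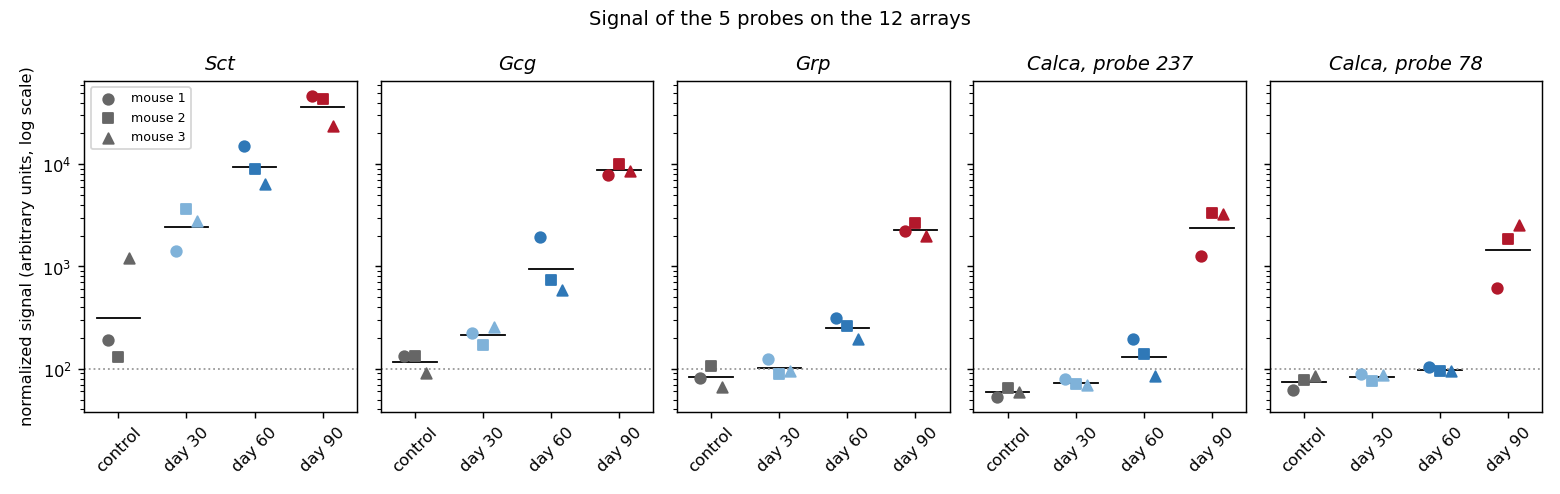
Normalized signal (arbitrary units, log scale) of the 5 probes in the control, day 30, day 60 and day 90 groups, 1 symbol per mouse, with a bar at the mean of the log values. The dotted line marks the signal of 100 taken as background. For Sct the controls lay lowest and the transgenic groups followed in order of age without overlap. Gcg and Grp stood out from day 60, and Calca was above 100 on every array of its group at day 90 only, between 623 and 3370.4 over its 2 probes.

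All 4 genes were higher at day 90 than in controls. The study itself reports all 4 as overexpressed in these day 90 samples, so the direction is not independent evidence. The probes of Sct, Gcg and Grp and Calca probe 78 are also named only by the study's lists of genes changed in these samples. The log2 fold change was 6.87 ± 0.71 for Sct (SE, n = 3 per group, limma adjusted p = 0.000281) and 6.22 ± 0.18 for Gcg (adjusted p = 4.25e-07), which are 116.5-fold and 74.7-fold. Grp was 27.2-fold higher, with a log2 fold change of 4.77 ± 0.19 (adjusted p = 2.54e-06). Because all 3 control arrays were at or below background for Calca, its fold is a bound: probe 237 was at least 24.0-fold higher (adjusted p = 1.8e-05) and probe 78 at least 14.4-fold higher (adjusted p = 0.000267). The background at this age was high, since 10.4% of the 22067 probes tested were higher and 9.17% lower. By size, Sct ranked 2 among all probes, Gcg 5 and Grp 13, and Calca, whose fold is a bound, has no rank. With the authors' normalized values in place of the normalization used here, the split was 2605 higher and 1212 lower of 10961 probes, and the log2 fold changes were larger for the dim genes, 5.69 for Grp and 6.83 for Gcg. The Sct value moved with single controls, to 7.85 without control mouse 3 and 6.23 without control mouse 2, and passed each time. In such bulk tissue, more cells of a type and more RNA per cell cannot be told apart.

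At day 60, 3 of the 4 genes were higher than in controls, in a comparison where 0.847% of probes were called higher and 0.00906% lower. The log2 fold change was 4.92 ± 0.72 for Sct (limma adjusted p = 0.0274), 3.00 ± 0.39 for Gcg (adjusted p = 0.0196) and 1.59 ± 0.21 for Grp (adjusted p = 0.0196). Sct had the largest fold change of all probes tested, and did so in each of the 18 alternatives. Calca probe 237 was at least 1.32-fold higher without passing (adjusted p = 0.0889), and probe 78, at background on 2 of 3 day 60 arrays, did not pass (adjusted p = 0.214). These calls hung on single arrays. None of the 3 genes passed without control mouse 1 (adjusted p of 0.0779 to 0.103) or without day 60 mouse 2 (0.0553 to 0.0839), although the log2 fold changes were close to those above, and without day 60 mouse 1 only Gcg passed. Without day 60 mouse 3 Sct did not pass (0.0708). The log2 fold change of Sct was 5.90 without control mouse 3 and 4.29 without control mouse 2, and with the deposited normalized values Gcg was at 3.70 and Grp at 2.31.

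At day 30 none of the 4 genes passed, nor did any other probe, with 0% called higher and 0% called lower. At an unadjusted p under 0.05 limma gave 433 higher and 454 lower probes, among them 2 of the 5 members' probes, and the methods' t-test with the same adjustment called none. The log2 fold change was 2.96 ± 0.73 for Sct (adjusted p = 0.579), 0.86 ± 0.20 for Gcg (adjusted p = 0.545) and 0.28 ± 0.20 for Grp (adjusted p = 0.999). Calca was at or below background in both groups. Day 30 and control arrays did not overlap for 3 of the 4 genes (Sct, Gcg and Calca). For Calca this held for 1 of its 2 probes, with signals at or below background. Non-overlap in that direction was seen for 5.04% of all probes, those at background included. The Sct value rested on 1 control array: without control mouse 3 the log2 fold change was 3.94 and passed (adjusted p = 0.0207), and without control mouse 2 it was 2.33.

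The steps from age to age differed in size among the 4 genes, and both steps share the day 60 arrays. Between day 60 and day 30, 2 genes passed, in a comparison with 0.353% of probes called higher and 0.00453% lower: Gcg with a log2 fold change of 2.14 ± 0.36 (limma adjusted p = 0.0457) and Grp with 1.31 ± 0.19 (adjusted p = 0.0331). Sct was at 1.96 ± 0.36 (adjusted p = 0.0542), and Calca probe 237 at least 1.32-fold higher (adjusted p = 0.183). Both calls were lost without day 60 mouse 2 or mouse 3 or without day 30 mouse 3, and 1 of them without day 60 mouse 1 or day 30 mouse 1, while Sct passed too without day 30 mouse 2 (adjusted p = 0.0302). Between day 90 and day 60 all 4 genes passed, beside 9.94% of probes called higher and 9.83% lower. This step was 1.94 ± 0.31 for Sct (adjusted p = 0.00125), 3.22 ± 0.34 for Gcg (adjusted p = 0.000118), 3.18 ± 0.17 for Grp (adjusted p = 3.02e-06), and 4.19 ± 0.37 for Calca probe 237 (adjusted p = 4.12e-05). Calca probe 78 was close to its partner, at 3.87 ± 0.39 (adjusted p = 9.12e-05), and at 4.48 without day 90 mouse 1.

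Expressed as a share of the log2 difference between day 90 and control, Sct had reached 43.2% at day 30 and 71.7% at day 60. Gcg had reached 13.8% and then 48.2%, and Grp 5.9% and then 33.3%. Grp was at or below background on 2 control and 2 day 30 arrays, and Gcg on 1 control array, so their shares rest partly on such signals. The Sct share moves with single controls. Its log2 fold changes at day 30 and day 90 were 2.33 and 6.23 without control mouse 2, and 3.94 and 7.85 without control mouse 3. Calca has no such share, since its controls were at background. The shares are a description, and the differences between genes were not tested.

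**Figure D2:**
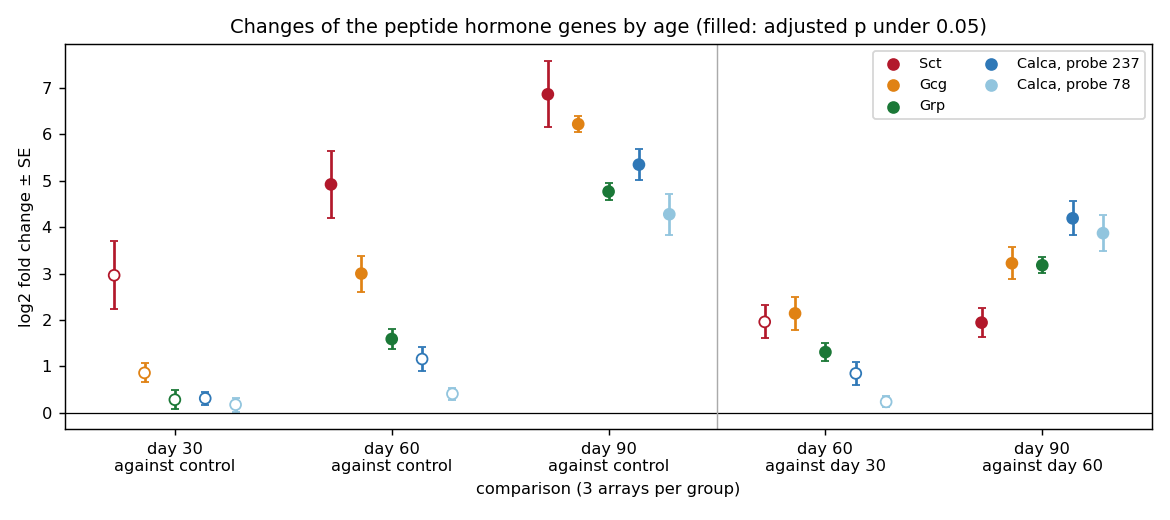
Log2 fold change with its standard error for the 5 probes in the 5 comparisons of 3 against 3 arrays, filled where the limma adjusted p was under 0.05. The Calca values against control, and between day 60 and day 30, are fitted against arrays at background and are not measured folds. Sct showed the largest value at day 30 and day 60 (2.96 and 4.92) and the smallest between day 90 and day 60 (1.94), where Calca probe 237 was at 4.19.

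At day 60 the members followed 1 order of mice, and in the other groups they did not. Day 60 mouse 1 was the highest, mouse 2 the next and mouse 3 the lowest for Sct, Gcg, Grp and Calca probe 237. Calca probe 78 had the same order, but at signals near background (104, 95.7 and 95.3 in mice 1 to 3). The order was not particular to the members. Summed neuroendocrine markers (19640, 10370 and 9620) and prohormone processing genes (6142, 4448 and 3610), described below, had it too, while summed smooth muscle markers did not (3725, 7029 and 4433). At day 90, mouse 3 was the lowest for Sct and Grp, and mouse 1 the lowest for Gcg and for both Calca probes. Day 30 mouse 2 had the highest Sct of its group but the lowest Gcg. The same array also had the highest day 30 signal of Chgb, which encodes the granule protein chromogranin B, at 3686 beside 308 and 381 in mice 1 and 3. Tph1, which makes the serotonin precursor, read 920 there beside 302 and 405. With 3 mice per group these orders are a description.

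The named genes with courses most like the members' were compared over the 12 arrays, as the root mean square difference of log2 profiles after each was centred on its own mean, among 5525 genes. Closest to Sct was Tph1, with a difference of 0.725, then Nt5dc2 (1.04), Scg2 (1.07), Hap1 (1.12) and Chgb (1.13). Tph1 had log2 fold changes of 4.02 ± 0.26 at day 60 and 6.39 ± 0.17 at day 90 (limma adjusted p = 0.00141 and 3.51e-07). Closest to Gcg was the granule protein gene Scg2 at 0.55, followed by Dlk1, a Notch-related membrane protein gene, at 0.59, Sbp at 0.677, Resp18 at 0.72 and Pdyn at 0.781. Grp was closest to Pdyn (0.372), Syt4 (0.378), Sbp (0.391), Scg5 (0.395) and Thy1 (0.468). Calca was closest to Pappa2 (0.474), Sbp (0.514), Thy1 (0.542), Syt4 (0.56) and Scg5 (0.59). Among the members themselves Grp and Calca were nearest to each other (0.513) and Sct and Calca farthest apart (1.67). Most of these genes carry names taken from the study's own lists of genes changed in these samples, which favours them.

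Other peptide hormone genes were taken from a list of 61. Only 9 had a named probe and 5 were bright enough to be tested. At day 90, 4 of the 5 were higher than in controls, beside 10.4% of all probes. Their median log2 fold change over the 5 was 1.77, beside -0.04 over all probes. Pdyn, the dynorphin precursor, was at 4.37 ± 0.13 (limma adjusted p = 4.25e-07), with 3406, 3502 and 3100 at day 90, against 162, 179 and 145 in controls. Cck, cholecystokinin, was at 3.51 ± 0.27 (adjusted p = 4.94e-05), with 1186, 1099 and 707 at day 90, against 63.8, 79.5 and 122 in controls. Iapp, the islet amyloid peptide, rose by 1.77 ± 0.38 (adjusted p = 0.012), and Nmb, neuromedin B, the relative of gastrin-releasing peptide, by 0.88 ± 0.15 (adjusted p = 0.00372). Adcyap1 did not pass (-0.29 ± 0.18, adjusted p = 0.294). Pdyn alone passed at day 60, at 1.68 ± 0.28 (adjusted p = 0.0392), a call kept in 10 of 18 alternatives. At day 30 none of the 5 passed. Between day 60 and day 30 none passed, and between day 90 and day 60 Cck, Pdyn and Nmb did. Pdyn, Cck and Iapp were named only from the study's lists, which chose them for their rise, so their direction is no independent evidence.

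Of 13 receptors and receptor subunits for the member peptides, 5 had a named probe and 2 were tested. Calcr, the calcitonin receptor, was at least 3.48-fold higher at day 90 (limma adjusted p = 1.38e-05), with 377, 371 and 301 at day 90, against 78.3, 74.0 and 75.9 in controls. At day 60 it was at least 1.37-fold higher (adjusted p = 0.0475), a call kept in 8 of 18 alternatives. Its name comes from the study's list. Crcp, a component needed for signalling by the calcitonin gene-related peptide receptor, was at 393, 335 and 384 at day 90, against 377, 368 and 317 in controls, and did not pass. Calcrl, Glp2r and Nmbr did not pass the filter on low signal.

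Of 11 listed genes that process prohormones, 7 had a probe and were tested. At day 90, 5 of the 7 were higher and 1 lower, beside 10.4% and 9.17% of all probes, with a median of 2.82. Scg5, the chaperone of prohormone convertase 2, was at 4.46 ± 0.26 (limma adjusted p = 1.34e-05), and Pcsk2, that convertase, at 3.70 ± 0.21 (adjusted p = 1.28e-05). Cpe, which trims the cut peptides, was at 2.98 ± 0.17 (adjusted p = 1.15e-05), and Pcsk1n, an inhibitor of prohormone convertase 1, at 2.82 ± 0.18 (adjusted p = 1.8e-05). Furin, the convertase of the constitutive pathway, was lower, with 140, 122 and 155 at day 90, against 315, 396 and 259 in controls (-1.20 ± 0.17, adjusted p = 0.00181). At day 60 Scg5 alone passed (1.52 ± 0.25, adjusted p = 0.0362), in 10 of 18 alternatives. None passed at day 30 or between day 60 and day 30. Of the 5 genes named from their probe IDs, 3 were higher and 1 lower at day 90, with a median of 0.77.

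Of 17 transcription factors of enteroendocrine cells or of the Gcg and Sct genes, 6 were tested. At day 90, 5 were higher and 1 lower, and at day 60, 4 were higher, beside 10.4% and 0.847% of all probes called higher at these ages. Insm1 and Neurod1 are named only from the study's lists of changed genes, and of the 4 factors named from their probe IDs 3 were higher at day 90 and 2 at day 60. Insm1 was at 3.59 ± 0.12 at day 90 (limma adjusted p = 8.82e-07) and 1.72 ± 0.22 at day 60 (adjusted p = 0.0196). Nkx2-2 was at least 5.87-fold higher at day 90 (adjusted p = 4.01e-06) and at least 1.87-fold higher at day 60 (adjusted p = 0.0193). Neurod1, which acts on the secretin gene, was at 2.21 ± 0.12 at day 90 (adjusted p = 1.08e-05), 0.92 ± 0.16 at day 60 (adjusted p = 0.0414) and 0.96 ± 0.16 between day 60 and day 30 (adjusted p = 0.0444), the only listed factor to pass there. The last call was kept in 7 of 17 alternatives. The day 60 calls against control were kept in 10 of 18 for Neurod1 and Fev, 14 for Nkx2-2 and 15 for Insm1. Tcf7l2, a Wnt pathway factor known to act on Gcg in intestinal cells, was lower at day 90, with 352, 273 and 348 at day 90, against 511, 567 and 628 in controls (-0.81 ± 0.15, adjusted p = 0.00512).

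**Figure D3:**
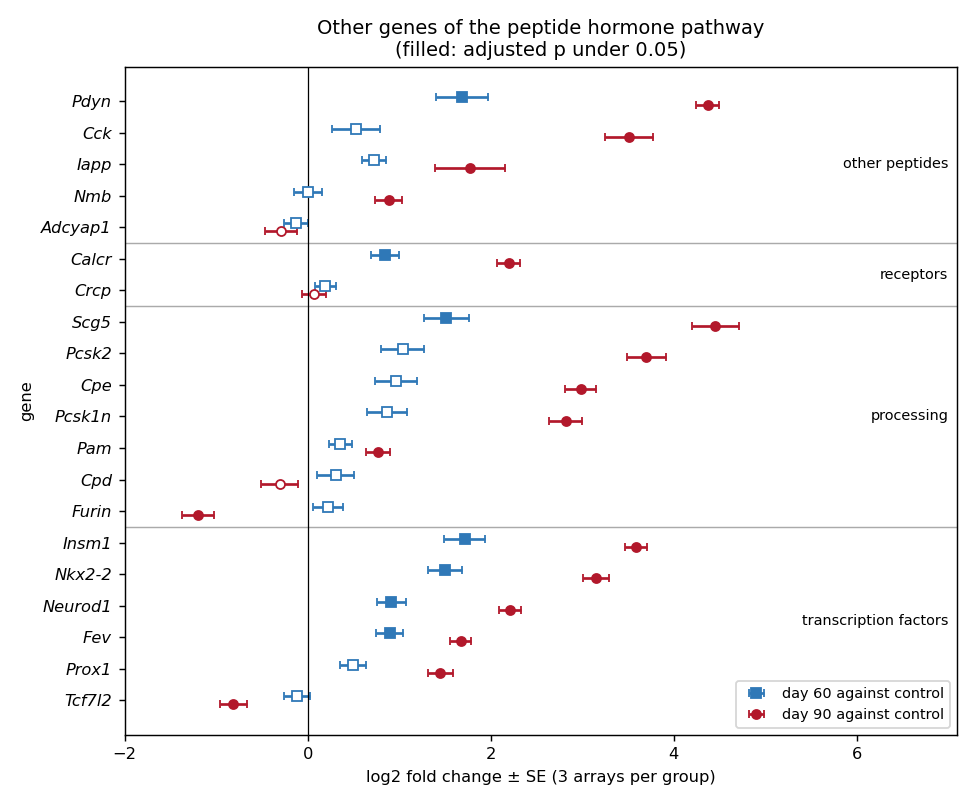
Log2 fold change with its standard error at day 60 (squares) and day 90 (circles) against control for the other peptide, receptor, processing and transcription factor genes tested, filled where the limma adjusted p was under 0.05. Pdyn, Scg5 and Insm1 lie farthest to the right in their groups at day 90 (4.37, 4.46 and 3.59), and Furin (-1.20) and Tcf7l2 (-0.81) lie below 0.

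Markers of other cells were read beside the members, in a comparison of day 90 with controls where 10.4% of all probes were higher and 9.17% lower. Of 19 enteroendocrine and neuroendocrine markers, 13 were tested and 12 were higher at day 90, with Chgb at 7.60 ± 0.37 (limma adjusted p = 5.82e-06) and a median of 3.89. Each of the 13 was read by its brightest probe. Dimmer tested probes of Snap25 (0.02, adjusted p = 0.933) and Syt4 (-0.02, adjusted p = 0.937) were flat, while those of Chga (3.43) and Ddc (3.62) were higher too. Of these 13, 7 are named only from the study's lists, Chgb among them, and the 6 named from their probe IDs had 5 higher and a median of 2.75. The summed signal of all 14 markers with a named probe, those named only from the study's lists included, ranged from 86410 to 111900 at day 90, against 2768 to 3420 in controls. Of 17 neuronal markers, 7 were tested and 5 were higher at day 90, and the sums were 2578 to 3216 at day 90, against 825 to 956 in controls. Acid- and pepsinogen-secreting cell markers were lower at day 90 in 5 of 6 tested, gastric mucous cell markers in 2 of 2, smooth muscle markers in 5 of 5 and squamous epithelium markers in 5 of 7. The squamous sums, from genes of the stratified epithelium that lines the mouse forestomach, were 691 to 8159 at day 90, against 14120 to 21370 in controls. The part of these cells in the members' values was not tested.

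The signal of genes typical of neighbouring organs differed between arrays. Pancreatic acinar markers summed to 657.7, 11230 and 46450 at day 90 in mice 1 to 3, against 91480, 1028 and 682 in controls, and reached 55430 in day 60 mouse 3. None of their 6 tested genes passed at day 90. Gcg, which islets also make, read 133 in control mouse 1, where the acinar sum was highest. It was lowest of its group in day 60 mouse 3 and in day 30 mouse 2, each with the highest acinar sum of its group. In control mouse 3 and day 90 mouse 1, each with the lowest acinar sum of its group, Gcg was also the lowest (91.0 and 7878). Of 8 islet markers only 3 had a named probe, and 2 of these, Mafa and Slc30a8, did not pass the filter on low signal. Iapp, the only islet marker tested, was higher at day 90 than in controls. It read highest in day 90 mouse 3, at 788 beside 220.4 and 322 in mice 1 and 2. The part of pancreatic tissue in the members' values was not tested. Without the 5 arrays that had an acinar sum above 5000, a fit that leaves day 90 mouse 1 alone in its group and assumes it to vary like the others, all 4 members still passed at day 90 (adjusted p of 0.000323 to 0.013). Day 90 mouse 1 has the lowest Calca of its group, and the Calca step between day 90 and day 60 was then smaller, at log2 fold changes of 2.94 for probe 237 and 2.64 for probe 78. None of the members passed at day 60 or between day 60 and day 30 in that fit, and Sct did not pass between day 90 and day 60.

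Duodenal material bears on secretin, since S cells sit there. Of 17 enterocyte markers 6 were tested, and 1, Apoa1, was lower at day 90 than in controls and none higher. Between day 90 and day 60, Apoa1 was lower and Slc5a1 higher (0.80 ± 0.23, limma adjusted p = 0.0282), the latter call being kept in 8 of 17 alternatives. The sums were 2373 to 10820 at day 90, against 15990 to 26870 in controls, and consist mostly of Apoa1 and Reg1. Apoa1 read 8496, 14940 and 5654 in control mice 1 to 3, beside 11470, 17190 and 3931 for Atp4a, an acid-secreting cell marker. At day 90 Apoa1 read 625, 1042 and 1188, beside 792, 431 and 637 for Atp4a. Reg1 read 17330 in control mouse 1 and 11820 in day 60 mouse 3, which had high acinar sums, and 11320 in control mouse 3, which did not. Which tissue these sums reflect was not tested. Control mouse 3, the control with the most Sct, had the highest signal of the 12 arrays for Slc5a1 (832, against 191 and 129 in control mice 1 and 2), for Cyp3a11 (250, against 91.0 and 85.9) and for Apoc3 (334, against 110.4 and 94.5), and for Apoa4 (1499, against 651 and 615). Its Apoa1 signal was the lowest of the controls, at 5654 beside 8496 and 14940. It stood apart from all other arrays on the second principal component, at 52.4. The part of duodenal tissue in its Sct signal, or in that of the day 90 arrays, was not tested.

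**Figure D4:**
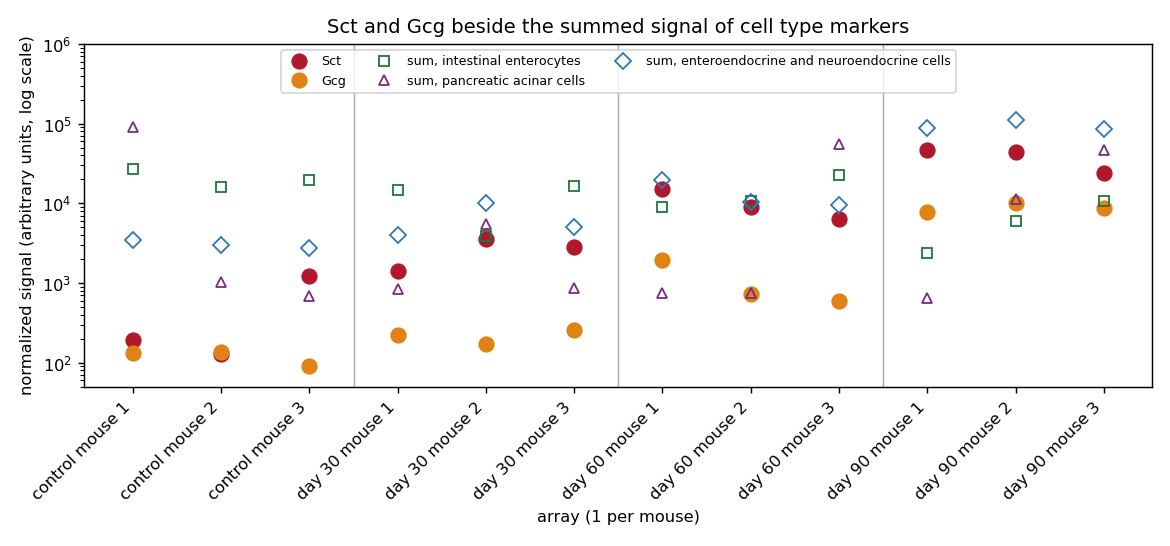
Normalized signal of Sct and Gcg (filled circles) and summed signal of enterocyte, pancreatic acinar and neuroendocrine markers (open symbols) on each of the 12 arrays, arbitrary units on a log scale. Each symbol is to be compared across arrays and not with another symbol. The enterocyte sum consists mostly of Apoa1 and Reg1. The acinar sum is high on 5 arrays spread over all 4 groups (5470 to 91480), among them day 90 mice 2 and 3. Sct and Gcg are highest on the 3 day 90 arrays.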

How the data were processed

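The authors deposited 2 intensity tables of 46116 probes for the 12 arrays, 1 of non-normalized intensity and 1 of normalized intensity, for which the study's methods name BeadStudio and vsn. The non-normalized intensities were background corrected (normexp, offset of 50), quantile normalized and put on the log2 scale with limma 3.58.1 in R 4.3.3. The filter asked for a signal over 100 on 3 or more arrays and left 22067 probes. It counted arrays of all groups, so a probe at background in controls could pass through its signal at later ages, which favours calls of a rise. Where none of the 3 arrays of a group exceeded 100, the group counted as background and the fold is a bound computed against 100. The offset shrinks the fold changes of dim probes. Each pair of groups was fitted by lmFit and eBayes, with Benjamini-Hochberg adjustment over all 22067 probes and a threshold of 0.05. Precision is limited by the number of arrays.

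Probe IDs carry no gene symbol. Names came from a gene number inside the probe ID (9832 probes), a clone name (980) or the study's supplementary tables alone (264), matched to RefSeq genes of GRCm38.p6, and 35040 probes were unnamed. Where both sources named a probe, 87 of 90 gave the same symbol. Of the members' 5 probes only Calca probe 237 was named from its ID, and the others rest on tables that list genes for their change in these samples. Promoters are from RefSeq (GRCm38.p6), where 3 of the 4 members matched and Grp is not shown.

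The members and gene lists were chosen with earlier results of these data known. The text names all members' probes in every comparison. From each list it takes 1 probe per gene, the one with the highest mean, and up to 4 called genes with the largest fold change per comparison, or fewer. It adds the 5 genes most alike to each member, and array checks of other genes were chosen after their values were seen. Alternatives were the background correction, offset, scaling, deposited values, filters, a replicate block, the methods' t-test, a spread with trend and robust prior, 1 joint fit of the 4 groups, and each array left out in turn. 2 more, without control mouse 3 in 1 fit and without the arrays with acinar signal, were added after seeing the data. The methods' t-test always carried the adjustment over all probes used here. The study's own calls were made at p under 0.05 with filters on fold change and difference of means, so these counts are not its results. Scripts were tested on simulated data.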

Additional observations from a re-analysis of the deposited data

Results flagged for a closer look

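Transgenic mice of different ages differed in a direct test of 1 age against the other. The wild type mice form 1 group for all ages, so age and transgene cannot be told apart here. Between day 60 and day 30 this held for Gcg (log2 difference of 2.14) and Grp (1.31). Between day 90 and day 60 it held for Sct (1.94), Gcg (3.22), Grp (3.18), Calca probe 237 (4.19) and Calca probe 78 (3.87). All 7 differences were positive, so the signal was higher at the later age each time.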

How the results depend on the processing

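At day 90 all 4 genes passed in each of 18 alternatives. At day 60 the 3 calls became 1 with a trended and robust spread, 0 with the methods' t-test and 0 without the arrays with acinar signal, and leaving out 1 array gave 0 to 3. At day 30 leaving out 1 array gave 0 to 1, and 1 gene also passed without control mouse 3 in 1 fit of all 4 groups. Between day 60 and day 30 the 2 calls became 0 with an offset of 16, with 75th percentile scaling, with a filter at 200, with the methods' t-test and without the arrays with acinar signal, and 1 with the deposited values and with the trended and robust spread, and leaving out 1 array gave 0 to 3. Between day 90 and day 60 the methods' t-test, with the adjustment used here, gave 2 of 4, where Sct and Gcg did not pass. Sct also failed that step in 1 fit of all 4 groups (adjusted p = 0.0675) and with the trended and robust spread (0.0576). The causes were not tested. No direction turned round for any member. The deviations of mice of the same number from their group means had correlations of -0.432 to 0.36 over 18 pairs. These values cannot tell whether such mice share more than a number. With the replicate block the calls were 0 between day 60 and day 30, and Sct did not pass at day 60 (adjusted p = 0.0698). Over all probes, 4314 calls at day 90 became 1054 to 5175, 189 at day 60 became 0 to 426, 79 between day 60 and day 30 became 0 to 229, and 4363 between day 90 and day 60 became 343 to 4884. At day 30, where none passed, the highest count was 83. The median of all probes at day 90 moved to -0.12 with 75th percentile scaling and 0.14 with the deposited values. Signals near 100 set no order between arrays.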
